A study of Drosophila melanogaster with 19 samples.

Results

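*lin-28*, *Imp*, *nos*, *pum*, *ovo*, *otu* and *stwl* encode RNA-binding proteins and other regulators of germline stem cells, and their RNA was followed through spermatogenesis in the *Drosophila melanogaster* testis. They were chosen by symbol, and all 7 had a value among the 12810 genes of the deposited table. They did not share one pattern. *lin-28* and *ovo* were abundant in the niche libraries and at 0 in both gonialblast libraries. *otu* was near 0 until the spermatocyte stages. *nos*, *pum* and *stwl* had their highest stage value in early spermatocytes, and *Imp* had its highest in late ones.

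The RNA came from single germ cell cysts picked with a glass needle from torn testes, and it was reverse transcribed from poly-dT primers and amplified. The 19 labelled libraries fall into 9 groups. Arrested spermatocyte cysts from *always early* (*aly*) mutants gave 2 libraries; *aly* encodes a transcriptional regulator that spermatocytes need for meiotic division and spermatid differentiation. The other 8 groups carry no mutant label: the niche (2 libraries), which is the testis tip where germline stem cells sit beside somatic hub cells, gonialblasts (GB, 2), spermatogonial cysts of 4 cells (S4, 2), 8 cells (S8, 2) and 16 cells (S16, 1), early spermatocytes (EC, 3), and late spermatocytes in a first set (LC1, 3) and a second set (LC2, 2). The labels give no strain, age or *aly* allele, and their cell type field reads germline stem cell for every library, spermatocytes included.

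Lin-28 is a conserved RNA-binding protein that blocks the maturation of the *let-7* microRNA, and in the fly testis Imp, the insulin-like growth factor 2 mRNA-binding protein, is known to protect the RNA of the niche signal Unpaired (*os* in the table) in hub cells. Nanos and Pumilio act together as translational repressors that hold germ cells in an undifferentiated state, an activity best described in the ovary. Ovo, a zinc finger transcription factor of the germline, activates *otu* in the female germline, Otu is needed for early oogenesis, and Stonewall, encoded by *stwl*, is a chromatin-associated protein that maintains female germline stem cells.

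Values are RPKM, reads scaled to gene length and to library size, so levels between genes are compared per length. Whether that scaling is fair to genes of different length in libraries primed with poly-dT was not tested. The table gives 1 value per stage, which is the plain mean over the libraries of that stage, and the whole reads of each library were recovered from those means. The LC2 mean proved to hold 3 libraries where 2 are labelled, so 20 libraries were found, with 813179 to 5120138 reads each, and results that rest on the late libraries are also given for LC1 and LC2 apart where that changes them. Libraries are lettered a, b and c by depth, deepest first, and the letters do not pair libraries of different stages. In a gene of 1 kb, 3 reads correspond to 0.612 to 3.22 RPKM, and this floor covers counting error only. Within stages, Pearson's r of log2(RPKM + 1) across genes was 0.811 to 0.985 over 14 library pairs. The *aly* RNA itself was 33.4 and 30.4 RPKM in *aly* libraries and 63.0 to 138 RPKM in EC libraries. The labels do not give the allele, so an RNA level does not check them. GB libraries held 22.3 and 42.2 RPKM of *aly* RNA, against 0 in S4, S8 and S16. Of the other spermatocyte markers, *can* and *sa* were at 0 in GB. In GB libraries a and b, *Rbp4* had 0 and 62.1 RPKM, *twe* 0 and 1.99 RPKM and *CycA* 130 and 79.1 RPKM. Whether these values bear on what the GB libraries contain was not tested.

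Germline markers (*vas*, *bam*, *bgcn*, *aub*, *AGO3* and *zpg*) summed to 523 to 758 RPKM in niche libraries and 620 to 738 RPKM in GB libraries. Hub markers summed to 105 and 31.0 RPKM in niche libraries a and b, with all 7 above 0 in library a and *dpp* at 0 in library b. Digestive enzyme genes of the gut summed to 516 and 443 RPKM in GB libraries and to 101 and 2253 RPKM in S4 libraries, against 4.87 and 0 RPKM in niche libraries. Muscle sheath markers summed to 227 to 239 RPKM in GB libraries and 23.6 to 91.2 RPKM in niche libraries. Where a summed level differs between stages, fewer cells of a type and less RNA per cell cannot be told apart. Differences are given as log2 of RPKM + 1. For late spermatocytes against EC, *aly* against EC and *aly* against late spermatocytes they come from a limma fit over 12408 genes, and a gene is said to have risen or fallen if its Benjamini-Hochberg adjusted p was below 0.05 and its higher side reached 8 RPKM. The labels do not say that libraries came from separate flies, so these p-values measure the spread between libraries, which may be technical. The earlier comparisons are described without a test, and there a difference of at least 4-fold between stage values is counted.

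**Figure D1:**
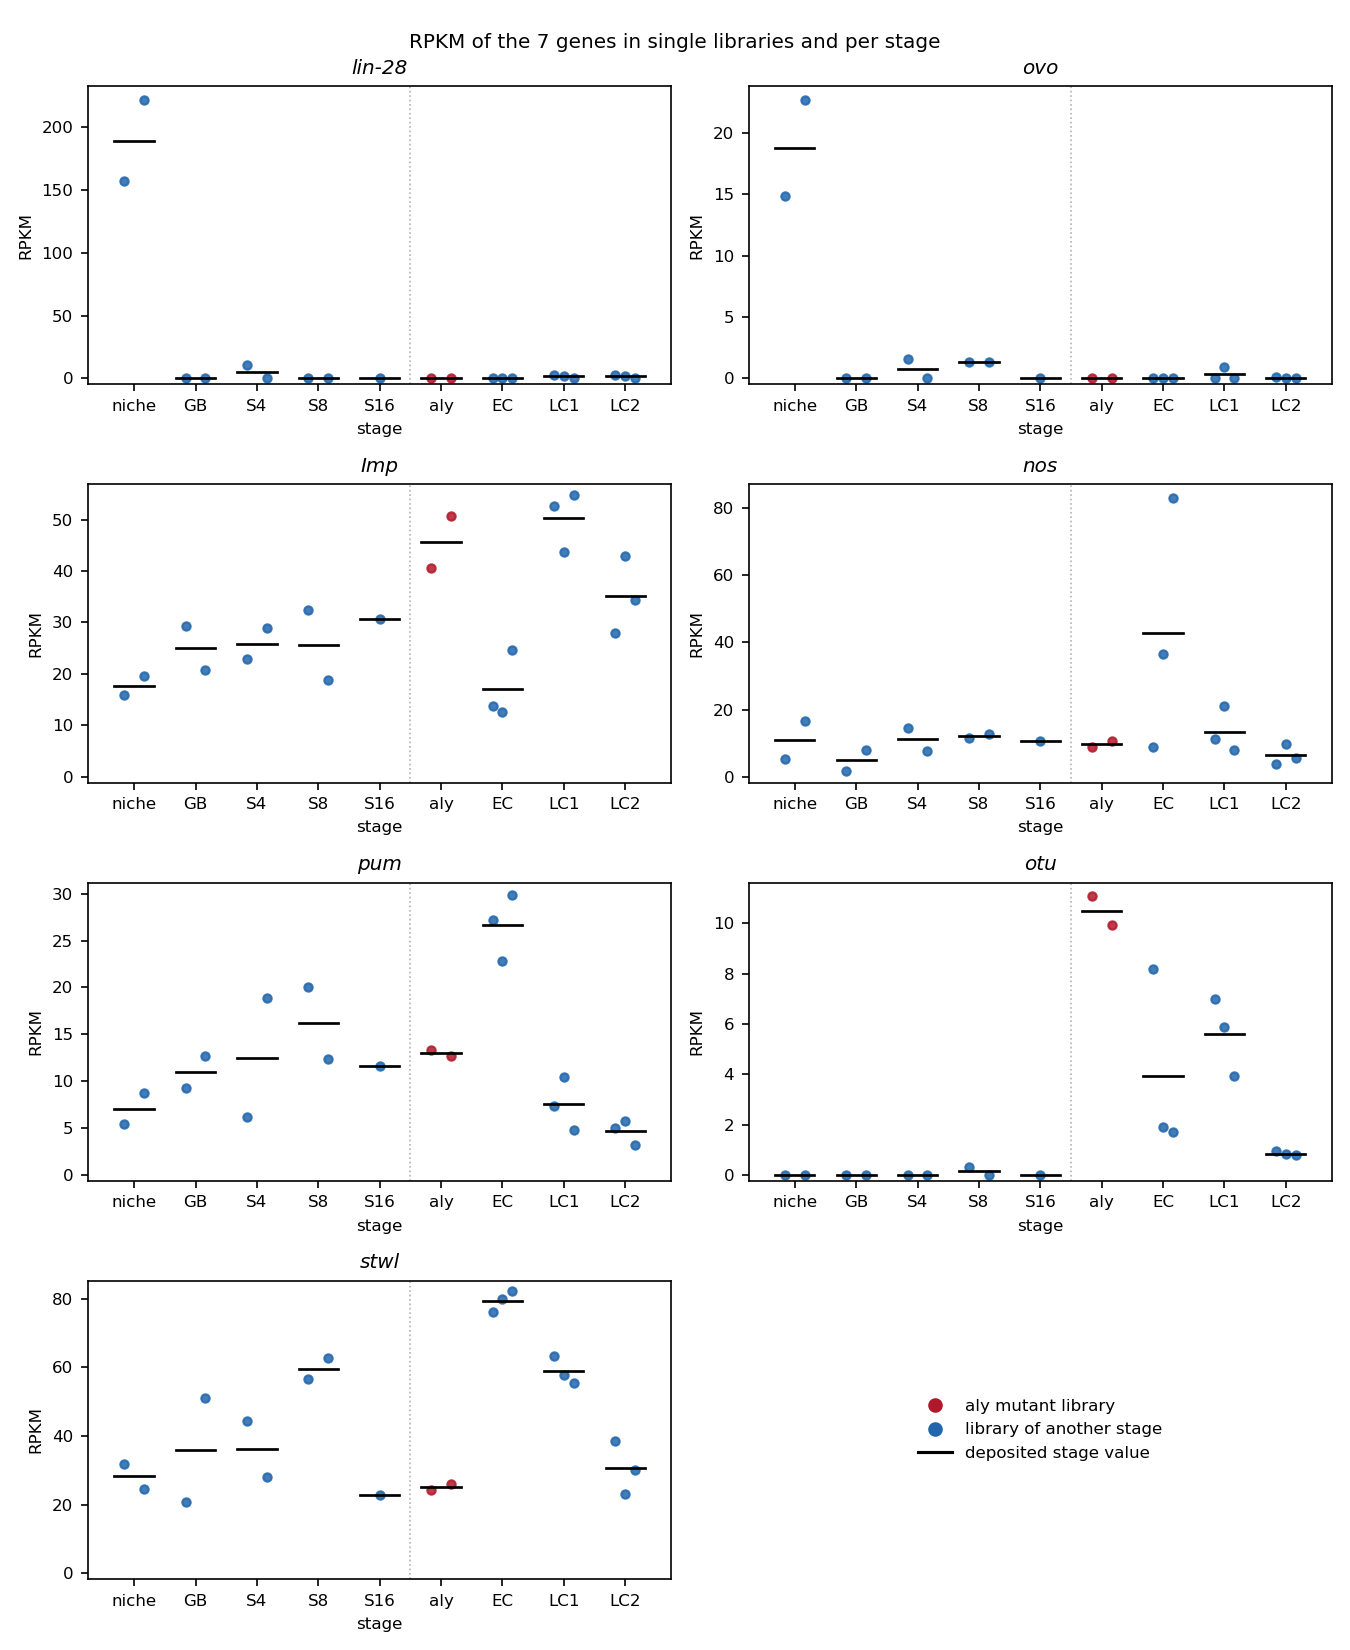
RPKM (y axis, linear, from 0, scale differs between panels) of the 7 genes by stage (x axis). Points are single libraries, red for *aly*, and bars are the deposited stage values. *lin-28* and *ovo* are high in the niche alone, *otu* has its highest libraries in *aly*, and *nos*, *pum* and *stwl* have their highest stage value in EC.

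*lin-28* had the highest RPKM of the 7 genes in the niche and the largest difference between GB and niche. The gene (FBgn0035626) is protein-coding and lies on 3L at 5654681 to 5657384, plus strand, in BDGP6.54, the annotation used for all coordinates here. Its RNA was 0 in both GB libraries, against 157 and 221 RPKM in the niche libraries (257 and 288 reads). Its 545 niche reads were slightly fewer than those of *Imp*, a longer gene. The niche stage value of 189 RPKM stood above 91.3% of all genes of that stage. It was 138-fold the GB floor of 3 reads, which is 1.37 RPKM for a gene of this length. That floor covers counting error only, so the fold is not a lower limit. *Rbp4*, for example, had 0 RPKM in GB library a and 62.1 RPKM in GB library b. Both niche libraries lay far above every other library of the series.

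After GB, *lin-28* had 10.4 and 0 RPKM in S4, from 34 reads that were all in library a, and no read in the 2 S8 libraries or the S16 library. The hub markers *os* and *esg* were at 0 in both S4 libraries, and the 7 hub markers summed to 1.84 RPKM in library a and 1.22 RPKM in library b. S4 library a held more of the cyst cell list (36.1 RPKM, against 17.1 in library b), of the muscle sheath list (337 against 41.6) and of the niche-rich gene *gbb* (106 against 20.8), and less of the gut list (101 against 2253). Whether these differences bear on the *lin-28* reads was not tested. *aly* libraries held 0.709 and 0 RPKM of *lin-28*, against none in the 3 EC libraries, 2.59, 1.87 and 0.484 RPKM in LC1 and 2.67, 2.31 and 0.741 RPKM in LC2. All 6 late libraries thus held a low level, while the EC libraries had no read. The late values were below the 8 RPKM that a call requires. They came from 10, 7 and 1 reads in LC1 libraries a, b and c and 9, 6 and 1 reads in LC2. Only library c of each set was thus below 3 reads, which are 2.22 RPKM in LC2 library c. In the shallowest EC library 3 reads are 2.42 RPKM. Late spermatocytes had a fitted difference of 1.37 ± 0.57 over EC, with a limma Benjamini-Hochberg adjusted p of 0.0552. Hub markers moved the same way: they summed to 24.8 to 83.3 RPKM in the 6 late libraries and 4.78 to 8.22 RPKM in the EC libraries, and their part in the *lin-28* values was not tested. In order of level, the niche was followed by S4, LC2, LC1 and *aly*, and below the niche the library values of each stage overlapped those of the next.

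*ovo* showed the same high niche and empty GB libraries as *lin-28*, at a lower level. The gene (FBgn0003028; X, 5048273 to 5070929, plus strand) also encodes the somatic transcription factor Shavenbaby, and a row per gene cannot separate the isoforms. No *ovo* read was found in either GB library, against 14.8 and 22.7 RPKM in the niche libraries. The niche stage value was 87.7-fold the GB floor of 0.214 RPKM, which again covers counting error only. Spermatogonia held 1.62 and 0 RPKM in S4, 1.32 and 1.35 RPKM in S8 and 0 in S16. No *ovo* read was found in *aly* or EC libraries. LC1 libraries held 0.0403, 0.956 and 0.0754 RPKM and LC2 libraries 0.139, 0.0601 and 0 RPKM. The niche libraries stood above all others, S8 and S4 overlapped, as did S4 and LC1 and LC1 and LC2.

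GB against niche compares the first differentiating daughter cell with the tip it comes from. Of the 7 genes, 2 were at least 4-fold lower in GB, *lin-28* and *ovo*, and 0 were at least 4-fold higher; over all genes tested, 9.03% were lower and 9.08% higher by that rule. Spermatogonia against niche gave the same 2 genes lower and 0 higher, with 6.51% lower and 9.62% higher over all genes, and the 2 comparisons share the niche libraries. For *lin-28* the stage values were 2.07 RPKM in spermatogonia, all of it from S4 library a, and 189 RPKM in the niche. For *ovo* they were 0.857 RPKM in spermatogonia and 18.7 RPKM in the niche. Between spermatogonia and GB, 0 of the 7 genes differed 4-fold in either direction, against 7.43% of all genes higher and 4.86% lower. That count became 1 without GB library b, and 1 without S4 library b.

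Summed hub and cyst cell markers were lower in GB than in the niche, as *lin-28* and *ovo* were. All 7 hub markers had a read in at least one niche library, whereas *os*, *Fas3*, *CadN* and *upd3* were at 0 in GB, and the 7 summed to 1.51 and 2.47 RPKM there. *hh*, another of the 7, had 1.51 and 1.021 RPKM in GB libraries and 0.681 and 1.15 RPKM in niche libraries. Cyst cell markers summed to 0.0755 to 17.9 RPKM in GB libraries and 51.7 to 144 RPKM in niche libraries, with *ptc*, *Socs36E* and *so* at 0 in GB. Niche library a held more of the hub list than library b, 105 and 31.0 RPKM, while *lin-28* and *ovo* were both lower in library a than in library b. The part of somatic cells in the *lin-28* and *ovo* values was not tested. Over the 9 stages, *lin-28* and *ovo* had a Pearson's r of 0.92 on the log2 scale, a description that rests on the niche value; the *lin-28* pattern was most like those of *CG34445* (r = 0.982), *SP1173* (0.979) and *miple2* (0.962), and that of *ovo* most like *inaF-D* (0.973), *inaF-B* and *CG42852* (both 0.971).

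**Figure D2:**
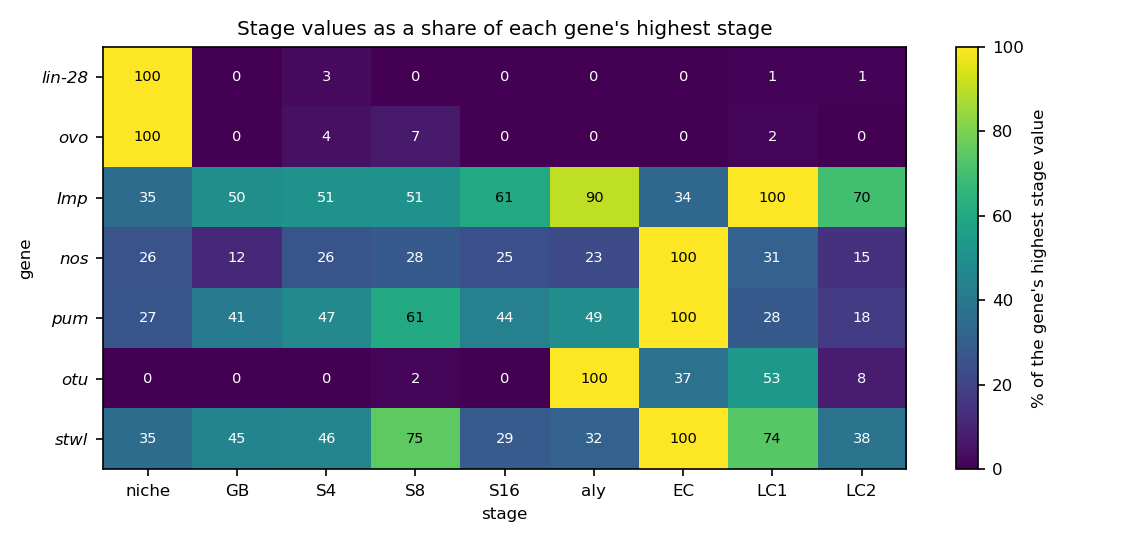
Stage values of the 7 genes (rows) as a percentage of each gene's own highest stage (colour and printed number), by stage (columns). *lin-28* and *ovo* reach 100% in the niche and at most 7% elsewhere, *nos*, *pum* and *stwl* reach 100% in EC, *Imp* in LC1 and *otu* in *aly*.

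*Imp* was present in every library, with no sharp change at the exit from the niche. The table's identifier FBgn0262735 corresponds to FBgn0285926 in the annotation, where the gene lies on X at 10787869 to 10824277, minus strand. GB libraries held 29.4 and 20.7 RPKM of *Imp*, against 15.9 and 19.5 RPKM in niche libraries. Spermatogonial libraries held 22.8 and 28.9 RPKM in S4, 32.4 and 18.8 in S8 and 30.6 in S16. The GB values lay above those of the niche without overlap, by a log2 difference of 0.47 in stage values, and they overlapped those of S4 and S8. With 2 libraries on each side a lack of overlap carries little weight, and its share over all genes was not counted.

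*Imp* rose in late cysts and in *aly* cysts relative to EC. The *aly* libraries held 40.5 and 50.6 RPKM, against 13.8, 12.7 and 24.7 RPKM in EC, 52.7, 43.6 and 54.8 RPKM in LC1 and 28.0, 42.9 and 34.3 RPKM in LC2. All 6 late libraries and both *aly* libraries stood above all 3 EC libraries, whereas the *aly* and late values overlapped. In late spermatocytes *Imp* rose by 1.35 ± 0.30 over EC (limma, Benjamini-Hochberg adjusted p = 0.00159), and it passed in each of the 9 fits that leave out one library. In *aly* cysts it rose by 1.42 ± 0.39 over EC (limma adjusted p = 0.0169). That call was lost without EC library b (adjusted p = 0.0585), *aly* library a (0.0887) or *aly* library b (0.160). Against late spermatocytes the *aly* difference was 0.07 ± 0.35 (adjusted p = 0.910), and its sign changed without *aly* library b, at -0.09. In order of level LC1 came first, then *aly*, LC2, S16, S4, S8, GB, niche and EC; library values of neighbours overlapped except between S16 and S4 and between GB and niche. Of the genes searched, *Reck* (r = 0.930), *Cht3* (0.878) and *CG5180* (0.874) had the most similar pattern over the 9 stages.

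Between late spermatocytes and EC the marker lists also differed. Germline markers summed to 80.2 to 276 RPKM in late libraries and 496 to 849 RPKM in EC libraries. Cyst cell markers summed to 59.4 to 151 RPKM in late libraries and 22.7 to 54.6 RPKM in EC libraries. In *aly* libraries the germline list summed to 207 and 209 RPKM, the cyst cell list to 37.2 to 48.1 RPKM and the haemocyte and fat body list to 82.7 to 84.9 RPKM, against 18.4 to 44.8 RPKM of the haemocyte and fat body list in EC libraries. Late libraries held 19.2 to 174 RPKM of that list. All 6 cyst cell markers were above 0 in EC, LC1, LC2 and *aly*. LC1 library b stood apart from LC1 libraries a and c, with 276 RPKM of the germline list against 167 and 159, and *vas* at 34.4 RPKM against 3.88 and 4.95. Without it, late against EC gave *Imp* 1.41, *nos* -1.82 and *pum* -2.12, all called, and *stwl* -0.80, no longer called (limma adjusted p = 0.0519). What these differences contribute to the values of *Imp* and the other 6 genes was not tested.

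*nos* and *pum*, whose proteins act as partners in translational repression, both had their highest stage value in EC. *nos* (FBgn0002962, *nanos*; 3R, 19157238 to 19160202, plus strand) was low before that. GB libraries held 1.79 and 8.07 RPKM, against 5.38 and 16.6 RPKM in niche libraries. Spermatogonial libraries held 14.6 and 7.69 RPKM in S4, 11.5 and 12.8 in S8 and 10.5 in S16, all within the niche range. S4 library b lay within the GB range and the other 4 above it.

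EC libraries differed widely in *nos*. The *aly* libraries held 8.95 and 10.7 RPKM, against 8.94, 36.5 and 83.0 RPKM in EC, 11.2, 21.2 and 8.06 RPKM in LC1 and 3.93, 9.64 and 5.44 RPKM in LC2. EC library a was at the level of *aly* and late libraries, and EC library c was the highest of the series. In late spermatocytes *nos* fell by 1.61 ± 0.62 on the log2 scale relative to EC (limma, Benjamini-Hochberg adjusted p = 0.0410), with overlapping libraries. The call was lost in 6 of the 9 fits that each leave out one library, with adjusted p-values up to 0.274; without EC library c the difference was -0.90. With LC1 as the only late set it was -1.23 (adjusted p = 0.186). The *aly* difference from EC was -1.54 ± 0.80 (adjusted p = 0.199) and that from late spermatocytes 0.06 ± 0.71 (adjusted p = 0.960). In *aly* against EC, *nos* was called lower without EC library a, at -2.38 (adjusted p = 0.0273), and under quantile scaling, at -2.20 (adjusted p = 0.0432). Exons of *nos* overlap on the opposite strand with *CG11779* and *Nsun5* (*CG42358* in the table), and the strand setting of the counting is not given in the sources used here, so the *nos* values are uncertain. *CG11779* had 50.2, 59.2 and 80.6 RPKM and *CG42358* 42.2, 53.9 and 61.0 RPKM in EC libraries a, b and c. In order of stage value EC was followed by LC1, S8, S4, niche, S16, *aly*, LC2 and GB, and every pair of neighbours overlapped. The pattern was most like *Patj* (r = 0.917), *pr-set7* (0.902) and *CG2918* (0.900).

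*pum* (FBgn0003165; 3R, 9066343 to 9237682, minus strand) gave the steadiest fall between EC and late spermatocytes. GB libraries held 9.31 and 12.7 RPKM, against 5.41 and 8.75 RPKM in niche libraries. They did not overlap, which carries little weight with 2 libraries on each side. S4 libraries held 6.13 and 18.9 RPKM, S8 libraries 20.1 and 12.3 RPKM and the S16 library 11.6 RPKM, and these spanned the GB range. The *aly* libraries held 13.3 and 12.7 RPKM, against 27.2, 22.8 and 29.9 RPKM in EC, 7.31, 10.5 and 4.75 RPKM in LC1 and 5.01, 5.77 and 3.19 RPKM in LC2. All EC libraries were above all *aly* libraries, which were in turn above all late ones. In late spermatocytes *pum* fell by 1.97 ± 0.39 relative to EC (limma, Benjamini-Hochberg adjusted p = 0.000572), and it passed in all 9 fits that leave out one library.

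The *aly* difference of *pum* did not pass, neither from EC, at -0.97 ± 0.50 (limma adjusted p = 0.199), nor from late spermatocytes, at 0.999 ± 0.45 (adjusted p = 0.0951). It passed from EC under quantile scaling, at -1.39 (adjusted p = 0.0154), and from late spermatocytes with LC2 as the only late set, at 1.34 (adjusted p = 0.0423). Below EC the order was S8, *aly*, S4, S16, GB, LC1, niche and LC2, and library values overlapped between all neighbours except EC and S8. *mld* (r = 0.977), *Acn* (0.963) and *mor* (0.961) were most alike in pattern. Pearson's r between *nos* and *pum* over the 9 stages was 0.68. It was 0.67 between *nos* and *stwl*, so the value was not particular to *nos* and *pum*.

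*otu* was near 0 before the spermatocyte stages and had reads in every spermatocyte library. It lies on X at 8485008 to 8489535, minus strand (FBgn0003023). No read was found in the niche, GB, S4 or S16 libraries, and S8 held 0.333 and 0 RPKM. The *aly* libraries held 11.1 and 9.95 RPKM, against 8.18, 1.91 and 1.72 RPKM in EC, 6.98, 5.86 and 3.95 RPKM in LC1 and 0.947, 0.821 and 0.789 RPKM in LC2. Both *aly* libraries stood above all others, and the 3 LC2 libraries lay below all EC and LC1 libraries. For a gene of this length, 3 reads in the shallowest library correspond to 0.819 RPKM in the niche, 0.995 RPKM in S16 and 0.789 RPKM in LC2. The LC2 values lay close to these floors. EC against spermatogonia thus compared 3.94 with 0.0666 RPKM, a stage difference of 2.21, and under quantile scaling the difference was 0.86, under the 4-fold limit. Of the 7 genes 1 was higher and 0 lower by that rule, against 18.9% and 5.73% of all genes. Without EC library a the *otu* difference was 1.40, under the limit, and that of *nos* reached 2.29, so the 1 gene counted was then *nos*. The count became 2 without S4 library b.

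In *aly* cysts *otu* rose by 1.46 ± 0.44 over EC (limma, Benjamini-Hochberg adjusted p = 0.0287) and by 1.55 ± 0.40 over late spermatocytes (adjusted p = 0.00607). The first call was lost in 4 of the 5 fits that leave out one library, with adjusted p-values of 0.0949 without EC library b, 0.0968 without EC library c, 0.185 without *aly* library a and 0.12 without *aly* library b. It was also lost under quantile scaling, at 0.76 (adjusted p = 0.286). The second was lost without *aly* library a (adjusted p = 0.0684) and with LC1 as the only late set, where the difference was 0.83 (adjusted p = 0.189). Late spermatocytes differed from EC by -0.09 ± 0.35 (adjusted p = 0.862), and the sign changed without EC library a, at 0.48, and with LC1 alone, at 0.63. Exons of *otu* overlap on the opposite strand with *CG33181*, which held 4.75 and 5.80 RPKM in *aly* libraries and 10.8, 11.6 and 12.7 RPKM in EC libraries, so the *otu* values carry the same uncertainty of strand as those of *nos*. *Imp* and *ovo* also have exons that overlap non-coding RNA genes on the opposite strand, and *Imp* one on its own strand; these genes were not analysed here, and what they add to the 2 values cannot be told. From the top, *aly* was followed by LC1, EC, LC2 and S8, and LC1 and EC were the only neighbours above 0 whose libraries overlapped. *Zip3* (r = 0.988), *CG5273* (0.985) and *CG43347* (0.983) had the closest patterns. *ovo*, whose protein activates *otu* in the female germline, was at 0 in *aly* and EC, where *otu* had reads in every library; Pearson's r between them over the 9 stages was -0.38.

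*stwl* (FBgn0003459; 3L, 14402930 to 14409939, minus strand) was expressed throughout and had its highest libraries in EC. GB libraries held 20.7 and 51.0 RPKM, against 31.8 and 24.6 RPKM in niche libraries. Spermatogonial libraries held 44.3 and 28.1 RPKM in S4, 56.6 and 62.6 in S8 and 22.8 in S16. The GB range enclosed that of the niche, and S8 lay above every other spermatogonial, GB and niche library.

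The *aly* libraries held 24.2 and 26.03 RPKM of *stwl*, against 76.1, 80.0 and 82.1 RPKM in EC, 63.2, 57.7 and 55.4 RPKM in LC1 and 38.6, 23.1 and 30.0 RPKM in LC2. EC libraries lay above all *aly* and late libraries, and LC1 above LC2. In *aly* cysts *stwl* fell by 1.62 ± 0.38 relative to EC (limma, Benjamini-Hochberg adjusted p = 0.00628), a call lost without *aly* library a (adjusted p = 0.0790) or *aly* library b (0.0501). In late spermatocytes it fell by 0.81 ± 0.29 relative to EC (adjusted p = 0.0315). That call was lost in 6 of the 9 fits that leave out one library, with adjusted p-values up to 0.0818, and with LC1 as the only late set, at -0.43 (adjusted p = 0.337). The *aly* difference from late spermatocytes was -0.81 ± 0.34 (adjusted p = 0.0727); it passed with LC1 as the only late set, at -1.19 (adjusted p = 0.0256), and under quantile scaling, at -0.88 (adjusted p = 0.0149). Neighbours in the order EC, S8, LC1, S4, GB, LC2, niche, *aly* and S16 overlapped except EC and S8, LC1 and S4, and *aly* and S16. The most similar patterns were those of *CG3638* (r = 0.843), *Mec2* (0.841) and *Karybeta3* (0.827).

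**Figure D3:**
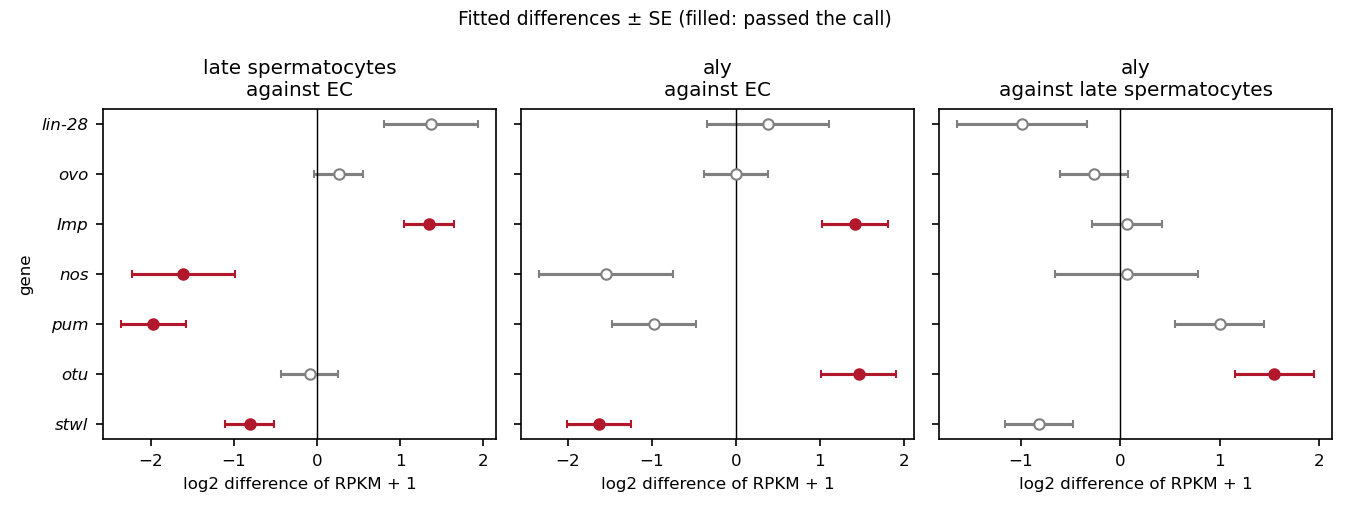
Fitted differences of log2(RPKM + 1) (x axis, points, with SE bars) for the 7 genes (y axis) in late spermatocytes against EC, *aly* against EC and *aly* against late spermatocytes. Filled red points passed the test. *pum* and *Imp* passed in late spermatocytes with differences of -1.97 and 1.35, and *otu* passed in both *aly* comparisons.

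In late spermatocytes against EC, which follows primary spermatocytes as they mature, 1 of the 7 genes rose (*Imp*) and 3 fell (*nos*, *pum* and *stwl*), while 23.2% of all genes rose and 20.0% fell. None of the 9 fits that leave out one library kept all 4 calls. The count was 2 without EC library b, EC library c or LC1 library c and 3 in the other fits, and it was 2 with LC1 alone. In *aly* against EC, 2 rose (*Imp* and *otu*) and 1 fell (*stwl*), against 8.46% and 7.04% of all genes, and the count of 3 fell to 1 without EC library b and to 0 without either *aly* library. In *aly* against late spermatocytes 1 rose (*otu*) and 0 fell, against 13.3% and 17.7% of all genes; at an unadjusted p below 0.05 limma gave 2 higher and 1 lower. That count of 1 became 0 without *aly* library a. The 3 comparisons share libraries, since each pair of them has one group in common. Quantile scaling moved the median difference of all genes to -0.39, against 0.12 with the authors' scaling, for late spermatocytes against EC, to -0.11 against 0.16 for *aly* against EC, and to 0.40 against 0.06 for *aly* against late spermatocytes. The 4 calls in late spermatocytes stood under that scaling, with *Imp* at 1.08, *nos* at -2.41, *pum* at -2.60 and *stwl* at -1.39.

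Other RNA regulators of the germline were set beside the 7 genes as a list of 21, all of them in the table and tested. GB held at least 4-fold more than the niche of 4 of them and 4-fold less of 1, against 9.08% and 9.03% of all genes. *bam*, the differentiation factor that acts against Nanos and Pumilio in the ovary, had 137 RPKM in GB and 8.40 RPKM in the niche, and *Rbp4*, a translational regulator of spermatocytes, 31.1 and 1.98 RPKM. The GB value of *Rbp4* came from library b alone, with 62.1 RPKM, and library a held none. *how*, an RNA-binding protein of stem cells, was listed at 0 in GB and had 14.2 RPKM in the niche, and *Sxl*, the splicing regulator, had 3.02 and 8.28 RPKM. The list's median stage difference was -0.04 and that of all genes 0.00. In spermatogonia against GB, 2 of the 21 were 4-fold higher and 0 lower, *how* at 3.74 RPKM and *bol* at 3.22 RPKM in spermatogonia, both listed at 0 in GB. Of all genes, 7.43% were higher and 4.86% lower. In spermatogonia against niche 3 were higher and 0 lower, led by *bam* (147 and 8.40 RPKM) and *brat* (15.0 and 0.0602 RPKM). The shares of all genes were 9.62% higher and 6.51% lower.

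EC held at least 4-fold more than spermatogonia of 9 of the 21 RNA regulators and 4-fold less of 0, with a list median of 1.64 and a median over all genes of 0.40. By that rule 18.9% of all genes were higher and 5.73% lower. *Syp* (*CG17838* in the table), an RNA-binding protein that opposes Imp in neural stem cells, had 109 RPKM in EC and 0.892 RPKM in spermatogonia. *Rbp4* had 385 and 9.52 RPKM. *bam* had 37.8 RPKM in EC and 147 RPKM in spermatogonia, just under 4-fold. *Syp* libraries held 155, 113 and 60.0 RPKM in EC and at most 1.98 RPKM in spermatogonia, without overlap, while *Imp*, its counterpart in that tissue, had 17.1 RPKM in EC and overlapped between the 2 groups.

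Of all genes, 23.2% rose and 20.0% fell in late spermatocytes relative to EC. Of the 21 RNA regulators, 6 rose and 7 fell (limma, Benjamini-Hochberg adjusted p-values of 2.73e-05 to 0.0481, list median -0.32, all genes 0.12). Those that rose were *cup* (215 RPKM in late spermatocytes and 72.8 RPKM in EC), *twin* (205 and 68.2), *bol* (200 and 54.9), *loqs* (154 and 60.4), *orb2* (142 and 56.4) and *orb* (139 and 44.6). Several of these encode translational regulators of the oocyte or of late germ cells, such as the eIF4E-binding protein Cup, the deadenylase Twin and the cytoplasmic polyadenylation factors Orb and Orb2. Those that fell were *vas* (10.5 RPKM in late spermatocytes and 129 RPKM in EC), *Dcr-1* (9.53 and 66.1), *Sxl* (2.76 and 15.7), *brat* (9.02 and 36.5), *bam* (9.80 and 37.8), *Rbp9* (7.93 and 30.6) and *bgcn* (78.7 and 122). *brat*, whose protein represses translation together with Nanos and Pumilio in the embryo, thus had the same direction as *nos* and *pum*, at -2.25 ± 0.47.

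In *aly* against EC, 3 of the 21 fell and 0 rose by limma's test, with 2 higher and 6 lower at an unadjusted p below 0.05 (list median -0.37, all genes 0.16). Of all genes, 7.04% fell and 8.46% rose. *vas* had 7.19 RPKM in *aly* and 129 RPKM in EC, *Sxl* 2.25 and 15.7 RPKM, and the deadenylase gene *Pop2* 22.5 and 111 RPKM. In *aly* against late spermatocytes *Rbp9* (39.9 and 7.93 RPKM) and *bam* (43.1 and 9.80 RPKM) rose, and *Pop2* (22.5 and 114 RPKM) and *orb* (18.1 and 139 RPKM) fell, with a list median of -0.08 and 0.06 over all genes. There 13.3% of all genes rose and 17.7% fell. Adjusted p-values of the called list genes in the 2 comparisons ran from 1.84e-05 to 0.0316.

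**Figure D4:**
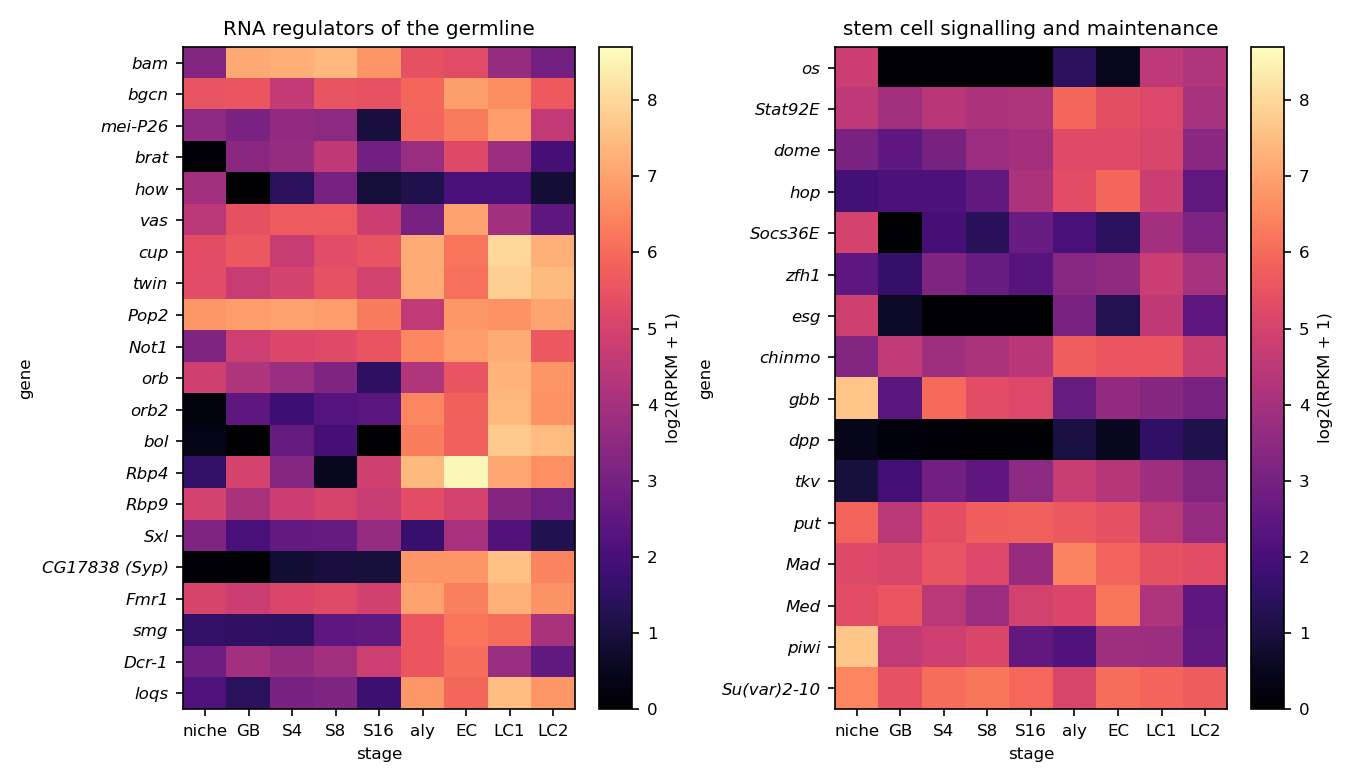
Stage values (colour, log2 of RPKM + 1) of the 21 RNA regulators and the 16 stem cell signalling and maintenance genes (rows) by stage (columns). *Syp*, *bol* and *orb2* are darkest from the niche to S16, and *os*, *esg*, *gbb* and *piwi* are brighter in the niche than in GB.

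The stem cell signalling and maintenance list, with 16 genes of JAK-STAT and BMP signalling and of stem cell upkeep, was mixed at the exit from the niche. GB held at least 4-fold less than the niche of 5 genes, against 9.03% of all genes, and 4-fold more of 0, against 9.08%. The other 11 did not reach 4-fold (list median -0.73, all genes 0.00). Of the 5, *os* and *esg* are also in the hub list and *Socs36E* in the cyst cell list. The BMP ligand gene *gbb* had 4.42 RPKM in GB and 199 RPKM in the niche, and *Socs36E*, a JAK-STAT target, was listed at 0 in GB and had 31.2 RPKM in the niche. *os* was at 0 in both GB libraries and at 51.1 and 2.48 RPKM in niche libraries, *esg* at 0 and 1.15 RPKM in GB and 42.9 and 13.9 RPKM in the niche, and *piwi* had 22.9 RPKM in GB and 201 RPKM in the niche. *chinmo*, a transcription factor of stem cell maintenance, had 22.7 RPKM in GB and 8.69 RPKM in the niche, and the BMP receptor gene *tkv* 2.81 and 0.979 RPKM. In spermatogonia against niche 5 were lower and 0 higher, led by *esg* and *os*, both at 0 in spermatogonia. The shares of all genes were 6.51% lower and 9.62% higher. In spermatogonia against GB 1 was higher, *gbb* (48.2 and 4.42 RPKM), and 0 lower, against 7.43% and 4.86% of all genes. In EC against spermatogonia 1 was higher, the kinase gene *hop* (60.2 and 6.68 RPKM), and 1 lower, *gbb* (11.1 and 48.2 RPKM). Of all genes, 18.9% were higher and 5.73% lower there.

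Of the same 16 genes, late spermatocytes had 3 that rose relative to EC and 3 that fell (list median -0.40, all genes 0.12). Over all genes, 23.2% rose and 20.0% fell. *os* had 20.3 RPKM in late spermatocytes and 0.397 RPKM in EC, a fitted difference of 3.89 ± 0.66 (limma adjusted p = 0.000141); *esg* had 15.3 and 1.42 RPKM and *Socs36E* 11.9 and 1.73 RPKM. *Med* (12.6 and 71.9 RPKM), *hop* (17.8 and 60.2 RPKM) and *put* (17.5 and 42.2 RPKM) fell, and adjusted p-values of the 6 genes ran from 0.000141 to 0.00461. *os*, whose RNA Imp binds in the hub, had the same direction as *Imp* between these stages. Between GB and niche *os* was at 0 in GB. *Imp* differed there by only 0.47 in stage values, from 2 libraries on each side and without a test. In *aly* against EC, 0 of the 16 passed in either direction by limma's test, with 1 higher and 2 lower at an unadjusted p below 0.05. The calls over all genes were 8.46% higher and 7.04% lower. In *aly* against late spermatocytes *put* (48.5 and 17.5 RPKM), *Stat92E* (60.3 and 27.1 RPKM) and *Med* (33.8 and 12.6 RPKM) rose and *os* (1.71 and 20.3 RPKM) fell, with adjusted p-values of 0.00235 to 0.0316. There 13.3% of all genes rose and 17.7% fell.

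The *let-7* axis, through which Lin-28 acts in other systems, was represented by 4 genes of 7 listed: *ab*, *br*, *chinmo* and *Syp*, of which 3 were tested, without *br*. The microRNA genes of the list were not analysed here. *ab*, a *let-7* target in muscle and neurons, rose by 3.29 ± 0.45 in late spermatocytes, with 60.0 RPKM there and 6.18 RPKM in EC (limma adjusted p = 1.96e-05), and by 3.36 ± 0.58 in *aly* cysts over EC, with 60.4 RPKM (adjusted p = 0.000774). None fell in these comparisons, also at an unadjusted p below 0.05 (0 genes). Over all genes, 23.2% rose and 20.0% fell in late spermatocytes, and 8.46% rose and 7.04% fell in *aly* cysts. In *aly* against late spermatocytes 0 genes of the list passed, adjusted or not, while 13.3% of all genes rose and 17.7% fell. In GB, where *lin-28* was at 0, *ab* had 0.924 RPKM, against 1.10 RPKM in the niche. These values came from 19 and 2 reads in GB libraries and 8 and 7 reads in niche libraries. *chinmo* had 22.7 RPKM in GB and 8.69 RPKM in the niche, and *Syp* 0 and 0.0615 RPKM. Whether *lin-28* bears on these values was not tested.

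Among 6 genes that act with *ovo* and *otu* in oogenesis, 5 were tested, without *fne*. *snf*, a splicing factor gene, had 233 RPKM in GB and 450 RPKM in the niche, and *bam* was the 1 list gene at least 4-fold higher in GB, with 0 lower. Of all genes, 9.08% were higher and 9.03% lower. Late spermatocytes had 4 genes that fell relative to EC and 0 that rose, also at an unadjusted p below 0.05 (*snf* with 99.0 and 315 RPKM, *Sxl*, *bam* and *vas*, with a list median of -1.94 and 0.12 over all genes). Over all genes, 20.0% fell and 23.2% rose. In *aly* cysts *snf* (122 and 315 RPKM), *Sxl* and *vas* fell relative to EC and 0 rose, also unadjusted, whereas *otu* rose in that comparison. The calls over all genes were 7.04% lower and 8.46% higher. In *aly* against late spermatocytes *bam* rose and 0 genes of the list fell, also unadjusted, while 13.3% of all genes rose and 17.7% fell.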

How the data were processed

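Per the labels' protocols, cysts were picked singly, permeabilised with mild detergent and their poly(A) RNA amplified as cDNA. Per the submitters' processing notes, Bowtie 0.12.7 and edgeR were used, with no role given for either; the sources used here give neither build and annotation nor the strand setting. The deposited table holds RPKM (cRPKM in its title line), 1 value per stage and no replicate numbers. Whole reads of single libraries were recovered from the decimals of those means: 12734 of 12810 genes came out whole in every library at a relative tolerance of 2e-14, or 99.4 to 99.99% of the genes of a library. At the gene length settled on, 0 genes had more than 1 solution. Reads and length are fixed only up to a shared factor, so read counts are less certain than RPKM values. All values of the 7 genes are such recovered values or the authors' stage means.

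limma 3.58.1 (R 4.3.3) was fitted to log2(RPKM + 1) of all 20 libraries with 9 group means and a variance trend, over 12408 genes with at least 1 RPKM in 2 libraries, two-sided. S16, with 1 library, was assumed to vary like the other groups. Pooled sides weight S4, S8 and S16, and LC1 and LC2, by labelled libraries. Calls were kept for comparisons in which simulated data gave at most 5% false calls. That simulation was revised several times after the fit had been seen: versions without noise in the group means were replaced, and with fewer changed genes late spermatocytes against EC went over the limit, so the calls there depend on the version with as many changed genes as differ 4-fold between the real stages. The other comparisons count differences of at least 4-fold after adding 1. No count model was run on the recovered whole reads.

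The 7 genes and the lists were chosen with earlier results of these data known. The genes most alike in pattern are the 3 with the highest Pearson's r of log2(RPKM + 1) over the 9 stages, among genes reaching 8 RPKM in a stage. List genes are named if called or, without calls, as the 2 with the largest difference each way. *Syp* was matched by its identifier to *CG17838* after the table was read. Alternatives were a pseudocount of 0.1, no filter, no minimum of 8 RPKM, quantile scaling, scaling to recovered reads, both sides alone, leaving out each library and, added after seeing the data, LC1 or LC2 alone.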

Additional observations from a re-analysis of the deposited data

Results flagged for a closer look

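Among 14 tests of single libraries (7 genes in 5 spermatogonial and 6 late libraries), 3 marked one library as far from the others of its group. For *lin-28* and *otu* all the other libraries were at 0, where any single library with a read is marked whatever its level, so the rate of about 1 in 20 that chance gives does not apply. *lin-28* had 10.4 RPKM in S4 library a (34 reads) and 0 in the other 4 spermatogonial libraries. *otu* had 0.333 RPKM in S8 library a and 0 in the others, from 4 reads. *ovo* had 0.956 RPKM in LC1 library b, while the other 5 late libraries had 0 to 0.139 RPKM. The same library also held the most of *vas* (34.4 RPKM), *aub* (62.7 RPKM) and *piwi* (29.1 RPKM) among the late libraries, where the others held at most 8.33, 14.6 and 6.40 RPKM.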

How the results depend on the processing

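No paired analysis was possible because the deposited columns carry no replicate numbers. With a pseudocount of 0.1, counts of the 7 genes differing 4-fold became 2 (against 0) in spermatogonia against GB and 3 (against 1) in EC against spermatogonia, and counts over all genes 2609 (against 1525), 4920 (against 3051) and, in spermatogonia against niche, 3138 (against 2002). Quantile scaling gave 2 of the 7 in EC against spermatogonia. Both sides alone gave 3333 genes (against 1923) in *aly* against EC, and 3 of the 7 (against 1) in *aly* against late spermatocytes. LC1 alone gave 2 of the 7 (against 4) in late spermatocytes against EC, and LC2 alone 2 (against 1) in *aly* against late spermatocytes. Leaving out one library gave 0 to 1 of the 7 in spermatogonia against GB, 1 to 2 in EC against spermatogonia, 2 to 3 in late spermatocytes against EC, 0 to 4 in *aly* against EC and 0 to 1 in *aly* against late spermatocytes; over all genes it gave 1523 to 2443 in spermatogonia against GB, 707 to 2063 in *aly* against EC and 2375 to 3960 in *aly* against late spermatocytes. Differences without a call that changed sign in the tested comparisons were *ovo* in late spermatocytes against EC -0.018 and *lin-28* in *aly* against EC -0.025 under quantile scaling; *otu* in late spermatocytes against EC -0.40 to 0.48 leaving out one library and 0.63 with LC1 alone; in *aly* against late spermatocytes *Imp* -0.090 to 0.22 and *nos* -0.11 to 0.28 leaving out one library, and -0.14 and -0.32 with LC1 alone. In the comparisons without a test, leaving out one library gave both signs for *stwl* in GB against niche (-0.43 to 0.83) and spermatogonia against GB (-0.25 to 1.015), *Imp* in spermatogonia against GB (-0.13 to 0.36) and *nos* in spermatogonia against niche (-0.50 to 0.96). Under quantile scaling the sign changed for *pum* in EC against spermatogonia (-0.06) and in spermatogonia against GB (-0.07), *Imp* in spermatogonia against GB (-0.02) and *nos* in spermatogonia against niche (-0.25). The *nos* call in late spermatocytes was lost at a pseudocount of 0.1 (adjusted p = 0.0591). The *otu* call in *aly* against EC was lost at a pseudocount of 0.1 (0.119) and with both sides alone (0.145), and that against late spermatocytes was lost under quantile scaling because its level fell below 8 RPKM. The cause of the other changes was not tested. No filter, no minimum of 8 RPKM and scaling to recovered reads changed no call of the 7 genes. Stages hold 1 to 3 libraries, and the shallowest library limits what can be detected, at 3.22 RPKM for 3 reads in a gene of 1 kb.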
